A study of Mus musculus with 6 samples.

Results

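Emx1, Emx2, Gbx1 and Gbx2 are 4 homeobox genes, and they were followed here in the mandibular arch of mouse embryos labelled Tbx1-/- or Tbx1+/+ for the T-box factor Tbx1. The members are all probe sets that the platform annotation gives to 1 of these 4 symbols, which are 5 of the 45101 probe sets in the table: 2 for Emx1 and 1 each for Emx2, Gbx1 and Gbx2. They were chosen by their log2 differences between the labelled genotypes on these same arrays, taken as a family, so those differences are a description with no test. Of the 5 probe sets, those of Emx2 and Gbx2 were lower on the arrays labelled Tbx1-/-, and those of Emx1 and Gbx1 had overlapping values in both genotypes.

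The tissue was the first pharyngeal arch's mandibular part, dissected from C57BL/6 embryos at E10.5, and it was hybridised to 6 Affymetrix Mouse Genome 430 2.0 arrays. 3 arrays were labelled Tbx1-/-, homozygous for a loss of Tbx1 in the whole embryo as far as the labels say, and 3 were labelled Tbx1+/+. No treatment is given for either genotype. RNA came from arches pooled over 3 embryos of a genotype. Whether the arrays of a genotype carried separate pools is not stated, so errors measure only the spread between these arrays, which may be technical.

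Emx and Gbx proteins are transcription factors that bind DNA through a homeodomain, and both families belong to the ANTP class of homeobox genes. In the mouse, Emx1 and Emx2 are known from the patterning of the cerebral cortex, and Emx2 also from the urogenital system and the shoulder blade. Gbx2 sets the position of the midbrain-hindbrain boundary in mutual antagonism with Otx2, and it acts in the pharyngeal region, where it interacts genetically with Tbx1 in the development of the arch arteries. Gbx1, its paralogue, is known from the developing spinal cord and forebrain.

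Tbx1 transcript itself was not lower on the arrays labelled Tbx1-/-. Its 1 probe set read 7.59, 7.50 and 7.30 (log2) on labelled-null replicates 1, 2 and 3, against 6.93, 7.31 and 6.92 on the wild-type arrays. For the difference of 0.41 an exact permutation test (two-sided) gave p = 0.2, where 3 arrays against 3 cannot go below 0.1. Which part of the gene was disrupted is not known here, so the label cannot be checked with this probe set, and the arrays are called labelled-null below. Labelled-null replicate 3 stood apart from the other arrays. It held 249 genes more than 1 (log2) above the mean of the others, against 6 to 32 on each other array, and the 13 placental markers with a probe set averaged 8.95 on it, against 4.92 and 5.07 on the other labelled-null arrays and 4.78 to 4.82 on the wild-type arrays. Results are therefore also given without it. Labelled-null replicate 1, which held the lowest Emx2 and Gbx2 values, had 90 genes more than 1 (log2) below the mean of the others, against 8 to 36 on each other array; without it the difference was -1.14 for Emx2 and -0.67 for Gbx2. The arch mesenchyme markers averaged 10.08 to 10.21 on the labelled-null arrays and 10.13 to 10.14 on the wild-type arrays, and all 15 with a probe set read above 4 on every array, as did all 16 surface and oral ectoderm markers.

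The stretches before the start sites of Emx2, Gbx2 and Emx1 are shown because the first 2 genes were lower and the third was not. They are the 250 bases upstream of the start in the RefSeq promoter table (build GRCm38.p6), which matched 3 of the 4 genes and held no entry for Gbx1. They lie at chr19:59458440-59458689 on the plus strand for Emx2, chr1:89931177-89931426 on the minus strand for Gbx2 and chr6:85187681-85187930 on the plus strand for Emx1, and each is written 5′ to 3′ along its gene. Capitals mark matches to 4 motifs searched on both strands, which were chosen with the values known: the T-box site AGGTGTGA, its inner core GGTGTG, the homeodomain core TAATTA and the E-box form CACGTG. Other forms of the E-box were not searched and are not marked.
Emx2: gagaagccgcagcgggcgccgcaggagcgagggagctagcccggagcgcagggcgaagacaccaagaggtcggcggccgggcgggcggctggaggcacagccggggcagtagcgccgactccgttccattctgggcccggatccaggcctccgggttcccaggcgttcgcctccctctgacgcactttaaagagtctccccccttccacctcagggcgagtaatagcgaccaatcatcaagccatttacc
Gbx2: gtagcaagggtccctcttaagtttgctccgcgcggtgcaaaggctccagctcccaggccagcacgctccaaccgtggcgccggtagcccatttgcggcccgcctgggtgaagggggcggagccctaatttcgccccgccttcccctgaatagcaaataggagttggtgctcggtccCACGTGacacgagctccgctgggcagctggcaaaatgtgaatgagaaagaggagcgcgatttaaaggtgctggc
Emx1: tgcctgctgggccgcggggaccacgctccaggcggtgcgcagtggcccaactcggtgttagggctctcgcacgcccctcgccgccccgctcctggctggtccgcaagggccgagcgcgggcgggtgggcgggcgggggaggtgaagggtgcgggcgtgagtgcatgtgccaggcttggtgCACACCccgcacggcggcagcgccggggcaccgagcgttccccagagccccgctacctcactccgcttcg

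None of the 4 motifs was found in the Emx2 stretch. Gbx2 held 1 E-box of the form CACGTG, starting 74 bases before the start, and Emx1 held 1 T-box core, starting 70 bases before it. Among the 32851 promoters of the table, the same 250 bases held the T-box site in 1.12%, the T-box core in 16.3%, the homeodomain core in 4.84% and this E-box form in 6.02%. The 3 stretches were rich in G and C, at 67.2% for Emx2, 61.6% for Gbx2 and 75.6% for Emx1, against a median of 52.4% over the table. They held 24 CpG in Emx2, 18 in Gbx2 and 30 in Emx1, against a median of 6.

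Emx2, read by probe set 1456258_at, showed the largest difference of the 4 genes. Values are log2 expression from GCRMA, which corrects background by probe sequence and gives 1 value for each probe set. Emx2 read 6.95, 7.34 and 8.29 on labelled-null replicates 1, 2 and 3, against 9.23, 8.93 and 8.71 on wild-type replicates 1, 2 and 3. All labelled-null values lay below all wild-type values, and the gap between the highest labelled-null and the lowest wild-type array was 0.42. The mean was 7.53 ± 0.69 (SD, n = 3) on the labelled-null arrays and 8.96 ± 0.26 (SD, n = 3) on the wild-type arrays, a difference of -1.43 (log2, SE 0.30) or 2.69-fold lower. The labelled-null arrays spanned 1.34 and the wild-type arrays 0.52, and the labelled-null value nearest to the wild type was that of replicate 3, the array with placental transcripts. Taken alone, that array differed from the wild-type mean by -0.66. Without it the labelled-null mean was 7.15 and the difference -1.81, or 3.51-fold lower. The part of the placental RNA in this distance was not tested. In pooled tissue, fewer cells that express a gene and less of its RNA per cell cannot be told apart.

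Gbx2, read by probe set 1420337_at, was lower on the same arrays. It read 6.93, 7.44 and 7.55 on labelled-null replicates 1, 2 and 3, against 8.27, 8.28 and 7.94 on the wild-type arrays. The genotypes again did not overlap, with a gap of 0.39 between the nearest arrays, which were replicate 3 of each. The mean was 7.30 ± 0.33 (SD, n = 3) on the labelled-null arrays and 8.16 ± 0.20 (SD, n = 3) on the wild-type arrays, a difference of -0.86 (log2, SE 0.18) or 1.81-fold lower. Labelled-null replicate 3 differed from the wild-type mean by -0.61, and without it the difference was -0.98, or 1.97-fold lower.

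Emx1 had overlapping values on both of its probe sets. Probe set 1441777_at read 6.61, 6.56 and 6.67 on the labelled-null arrays, against 6.54, 6.77 and 6.65 on the wild-type arrays, a difference of -0.04 (log2, SE 0.12). Probe set 1444216_at read 4.84, 5.10 and 5.23 on the labelled-null arrays, against 5.19, 4.91 and 4.92 on the wild-type arrays, a difference of 0.05 (SE 0.15). The labelled-null values lay among or on either side of the wild-type values on both sets, and the 2 sets correlated at r = -0.35 over the 6 arrays.

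Gbx1 also overlapped. Its probe set 1456760_at read 4.61, 4.76 and 4.50 on the labelled-null arrays, against 4.41, 4.47 and 4.77 on the wild-type arrays, a difference of 0.07 (log2, SE 0.14). All 6 values were close above 4, the level used as a filter, where the array has little signal over background, so a difference in Gbx1 might not be seen at this level. As a description of the spread between these arrays, 2 SE on either side spanned both directions for Gbx1 and for both sets of Emx1. This is no test, since the members were chosen on this contrast.

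**Figure D1:**
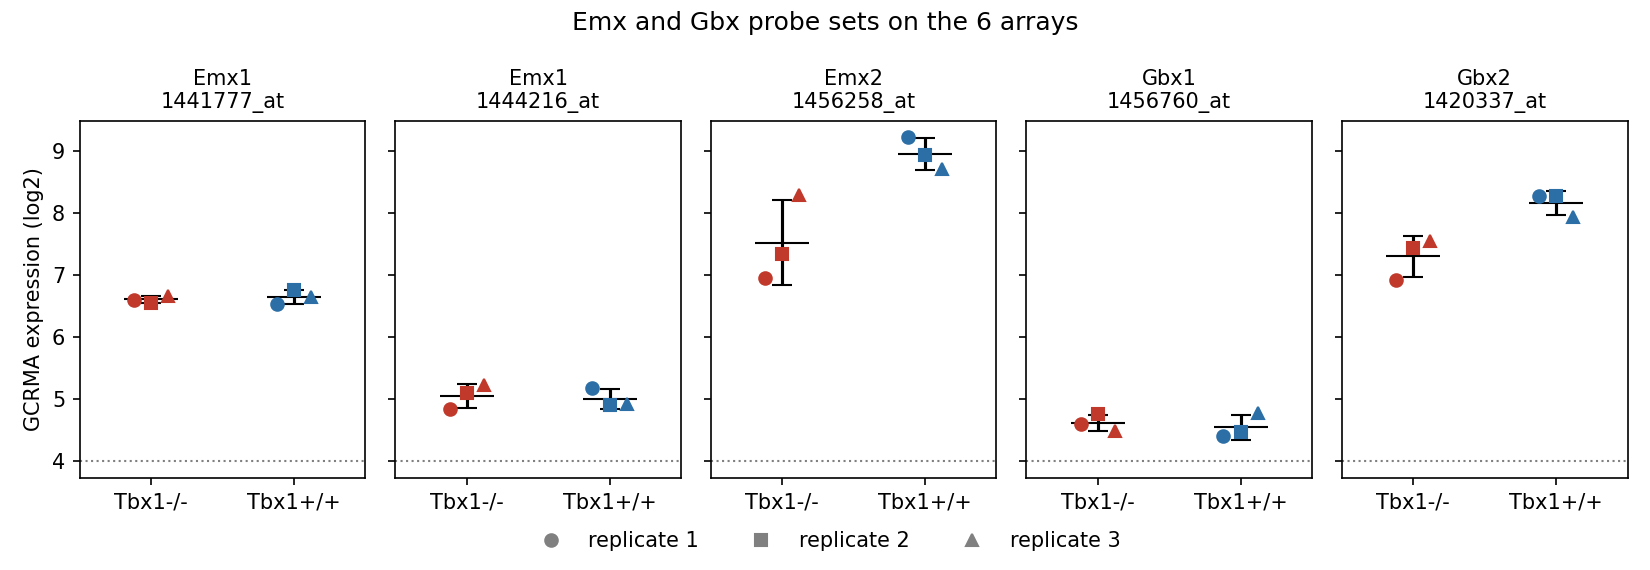
GCRMA expression (log2) of the 5 Emx and Gbx probe sets on each array, with labelled-null (Tbx1-/-) arrays at the left of each panel and wild-type (Tbx1+/+) arrays at the right. Horizontal bars are means, error bars the SD of 3 arrays, marker shapes replicate numbers, and the dotted line the filter level of 4; Emx2 and Gbx2 separate the genotypes, and Emx1 and Gbx1 do not.

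All 4 genes passed the filter on low values, a probe set above 4 on at least 3 arrays, which 16073 of 18193 genes passed. Emx2 and Gbx2 are the 2 of 4 members whose labelled-null arrays all lay below the wild-type arrays, and the same held for 3.25% of all genes tested. Ordered from the lowest difference, Emx2 was number 10 and Gbx2 number 20 of the 16073 genes, and without labelled-null replicate 3 they were number 7 and number 18. Emx1, on its brighter set, was number 5779 and Gbx1 number 12503. These places describe the choice of the members and support nothing further.

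By replicate number, Emx2 and Gbx2 were lower in each of the 3 pairs of arrays. The labels do not say what a number shares. For Emx2 the labelled-null array minus the wild-type array was -2.28 for number 1, -1.59 for number 2 and -0.42 for number 3. For Gbx2 the same differences were -1.35, -0.84 and -0.39. Both genes thus had their largest difference in pair 1 and their smallest in pair 3, and a difference below 0 in every pair was seen in 12.6% of all genes tested. For Emx1 the brighter set gave 0.07, -0.21 and 0.03, the other set -0.35, 0.18 and 0.31, and Gbx1 gave 0.21, 0.29 and -0.28, with both signs in each case.

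**Figure D2:**
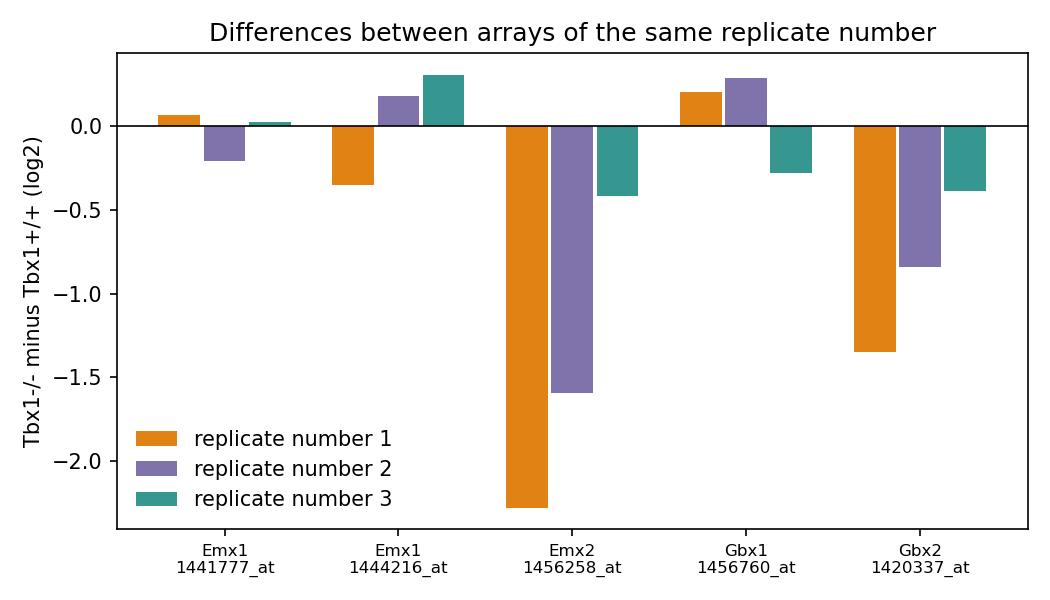
Difference between the labelled-null (Tbx1-/-) and the wild-type (Tbx1+/+) array of the same replicate number (log2) for each probe set, with a bar for each number. Emx2 and Gbx2 lie below 0 for all 3 numbers, from -2.28 to -0.42 and from -1.35 to -0.39, while the bars of Emx1 and Gbx1 point both ways.

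Emx2 and Gbx2 followed each other closely over the arrays. Their Pearson r was 0.95 over the 6 arrays and 0.97 without labelled-null replicate 3, given as a description, since the genotypes form separate groups on both genes and the arrays share their hybridisation and normalization. On the labelled-null arrays both were lowest on replicate 1 and highest on replicate 3, and on the wild-type arrays both were lowest on replicate 3. Emx2 correlated with Gbx1 at -0.52 and with the brighter Emx1 set at 0.30, and Gbx2 at -0.43 and 0.28.

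The genes most like Emx2 were sought among the 1187 tested genes with an SD of at least 0.3 over the 6 arrays. They were Col8a2, which encodes a chain of type VIII collagen (r = 0.99), Gpr39, a zinc-sensing receptor (0.97), Car6, a secreted carbonic anhydrase (0.97), Arg1, an arginase (0.96), and Vat1l (0.96). For Gbx2 they were Trpv6, a calcium channel (r = 0.98), Arg1 (0.98), Col8a2 (0.97), Vat1l (0.96) and Pcdh8, a protocadherin (0.96). Col8a2, Arg1 and Vat1l are on both lists of 5. Col8a2 read 6.42, 7.06 and 7.74 on labelled-null replicates 1, 2 and 3, against 9.00, 8.52 and 8.31 on the wild-type arrays, in the same order as Emx2 within each genotype. Arg1 read 6.01, 6.46 and 6.85 on the labelled-null arrays, against 7.25, 7.47 and 7.10 on the wild-type arrays, in the same order as Gbx2 on all 6. Any gene with a difference between the genotypes gains a high r from that difference alone. The genes most like Emx1 were Ap1m1, Rap1gap2, Coro2b, Notch4 and Mctp2 (r of 0.94 to 0.97), and those most like Gbx1 were Ccr3, 4933405D12Rik, Pak7, Klk13 and Hoxb1 (r of 0.86 to 0.95), over values of the members that spanned under 0.4 (log2).

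**Figure D3:**
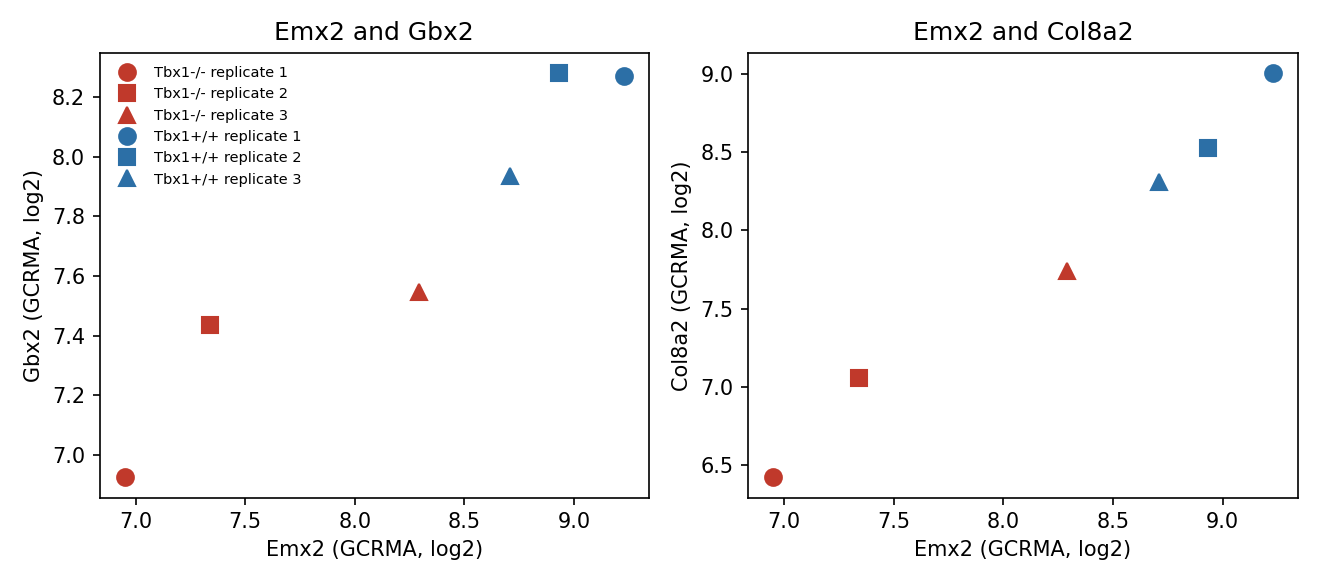
Gbx2 (left) and Col8a2 (right) against Emx2 on the 6 arrays (GCRMA, log2), with labelled-null (Tbx1-/-) arrays in red, wild-type (Tbx1+/+) arrays in blue and marker shapes for replicate numbers. In both panels the labelled-null arrays lie at the lower left, with replicate 3 nearest to the wild-type arrays.

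Relatives of Emx and Gbx in the ANTP class, outside the Hox clusters, were compared to see whether they moved with them. Of 54 listed genes 50 were analysed here and 39 of them passed the filter and were tested. In limma with Benjamini-Hochberg adjustment over all genes 0 of the 39 rose and 0 fell at an adjusted p under 0.05, against 0.0373% of all genes, and 0 passed without labelled-null replicate 3 too, against 0.137%. At an unadjusted p under 0.05, 0 were higher and 1 was lower, against 1.47% and 1.2% of all genes. Their median difference was -0.02 (log2), against -0.01 over all genes, and they ranged from -0.63 to 0.16. The lower one was En2, an engrailed factor of the midbrain and hindbrain, with 3.45, 3.55 and 3.57 on the labelled-null arrays, against 4.02, 4.20 and 4.23 on the wild-type arrays. En2 passed the filter of 4 through the wild-type arrays alone, so its difference of -0.63 is given with no test and its count supports nothing. Dlx4, a distal-less gene, averaged 6.30 on the labelled-null arrays and 6.78 on the wild-type arrays, a difference of -0.49 (SE 0.23, adjusted p = 1.00 in limma). Without labelled-null replicate 3 the Dlx4 difference was -0.78 (SE 0.13, adjusted p = 0.119 in limma), also not past the threshold. Dlx1 differed by -0.20 (SE 0.09) and Hlx by -0.25 (SE 0.12), neither past the threshold.

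Genes that act with Gbx2 at the midbrain-hindbrain boundary gave 0 of 22 tested members past the threshold in either direction. The share of all genes was 0.0373%, and the median difference of the list was 0.00. With no adjustment for multiple tests, 1 had a limma p under 0.05 in the higher and 1 in the lower direction, against 1.47% and 1.2% of all genes. The lower one was En2, which passed the filter through the wild-type arrays alone, so its count supports nothing here either. Otx2, the homeobox antagonist of Gbx2 in the brain, read 7.51, 6.91 and 6.98 on the labelled-null arrays, against 6.41, 6.31 and 6.85 on the wild-type arrays. All labelled-null values lay above the wild-type values, by 0.06 at the nearest, and the share of all genes separated in this direction was not counted. The difference of 0.61 (SE 0.20, n = 3 per genotype) had an adjusted p of 1.00 in limma. Fgf8, the signal of the boundary and of the pharyngeal arches, differed by 0.11 (SE 0.13) and Fgf17 by -0.24 (SE 0.11), neither past the threshold. Otx1, Wnt1, Pax8 and En1 did not pass the filter.

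The partners of Gbx2 and Tbx1 in the pharyngeal arches gave 0 of 30 tested members past the threshold, against 0.0373% of all genes. Their median difference was 0.00. With no adjustment for multiple tests, 2 had a limma p under 0.05 in the higher and 2 in the lower direction, against 1.47% and 1.2% of all genes. The lower ones were the forkhead genes Foxc1, at -0.54 (SE 0.09, adjusted p = 0.293 in limma), and Foxc2, at -0.55 (SE 0.10, adjusted p = 0.293). Foxc1 read 9.63, 9.56 and 9.64 on the labelled-null arrays, against 10.10, 10.05 and 10.29 on the wild-type arrays, and Foxc2 likewise had all labelled-null values below the wild-type values. The same held for 3.25% of all genes tested. Smad7, an inhibitory Smad, differed by 0.27 (SE 0.09) and Cxcr4, a chemokine receptor, by 0.21 (SE 0.09), and neither passed.

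Partners of Emx genes in the forebrain and the skeleton gave 0 of 26 tested members past the threshold, against 0.0373% of all genes. Their median difference was 0.01. With no adjustment, 1 had a limma p under 0.05 in each direction, against 1.47% of all genes higher and 1.2% lower. Lhx2, a LIM homeobox factor that acts beside Emx2 in the cortex and is also a gene of the arch core mesoderm, read 4.27, 4.14 and 5.04 on the labelled-null arrays, against 5.98, 6.38 and 6.22 on the wild-type arrays. Its difference was -1.71 (SE 0.23, adjusted p = 0.113 in limma), and -1.99 without labelled-null replicate 3. There it fell past the threshold (adjusted p = 0.00347 in limma) and was the 1 member of the list to do so, against 0.137% of all genes called. Alx4, a homeobox factor of craniofacial mesenchyme, differed by 0.32 (SE 0.13), and Tbx15, a T-box factor of the shoulder blade, by -0.39 (SE 0.19), neither past the threshold. Pax6, which opposes Emx2 in the cortex, differed by 0.07 (SE 0.15).

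**Figure D4:**
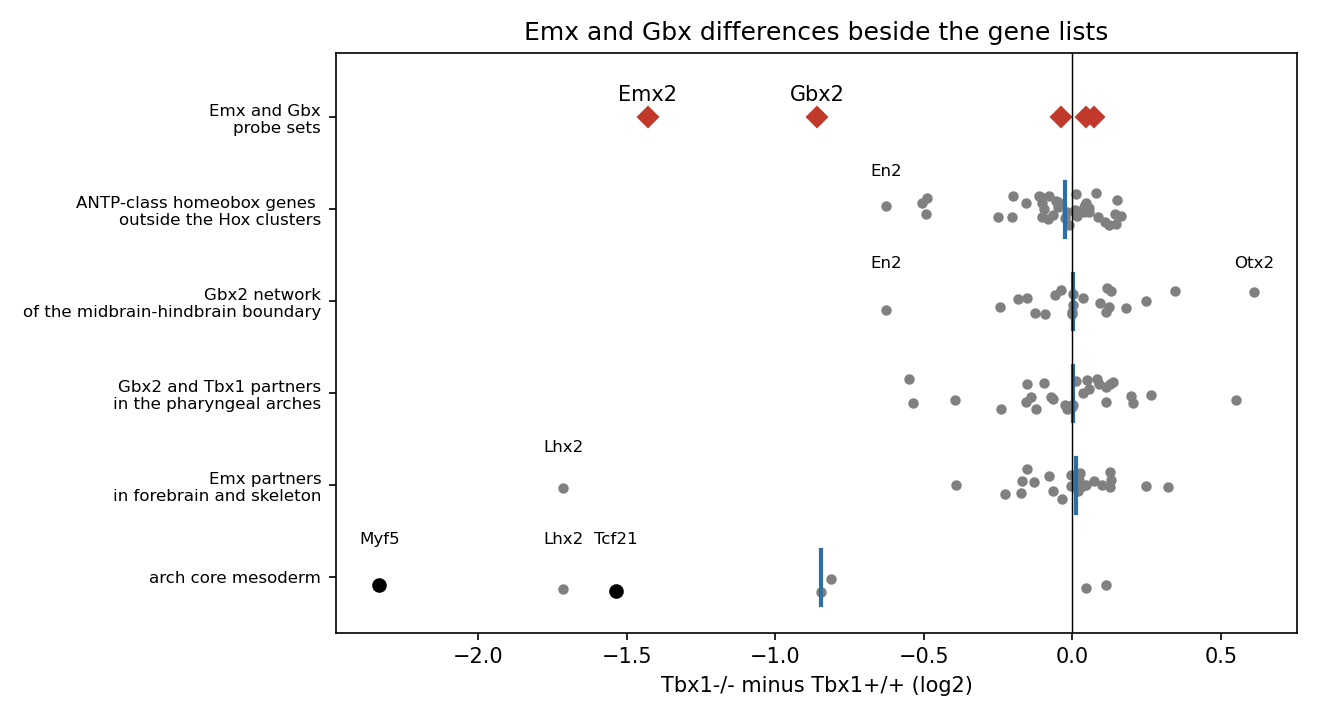
Difference between the labelled-null (Tbx1-/-) and the wild-type (Tbx1+/+) arrays (log2) for the 5 Emx and Gbx probe sets (diamonds) and for each tested gene of 5 lists (dots, spread vertically for display). Blue lines are list medians and black dots genes with an adjusted p under 0.05 in limma; Emx2 and Gbx2 lie at -1.43 and -0.86, and 2 arch core mesoderm genes, Myf5 and Tcf21, are black.

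The genes that lie beside the 4 members in the RefSeq table of mouse genes were compared as well, chosen after the data were seen. Emx2os, an antisense RNA transcribed away from the Emx2 start, read 4.53, 4.84 and 4.88 on the labelled-null arrays, against 5.11, 4.82 and 5.32 on the wild-type arrays. Its values overlapped, and the difference of -0.33 (SE 0.16, adjusted p = 1.00 in limma) did not pass. The protein-coding neighbours with a probe set, 3 for Emx2 and 4 each for the other members, differed by at most 0.15 in size with all arrays. Without labelled-null replicate 3 the largest differences were 0.22 for Iqca, beside Gbx2, and -0.21 for Rab11fip5, beside Emx1. None passed at either setting. Pdzd8, beside Emx2, differed by -0.10 (SE 0.07) and had all labelled-null values below the wild-type values, as did 3.25% of all genes tested. The nearest to Gbx2 were Agap1, at 0.06 (SE 0.10), and Asb18, at 0.01 (SE 0.14), and the nearest to Gbx1 were their relatives Agap3, at -0.13 (SE 0.12), and Asb10, at 0.09 (SE 0.11).

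Cell type markers were set beside Emx2 and Gbx2, since a dissected arch holds several tissue layers. Of the arch core mesoderm list 2 of 7 tested genes fell, against 0.0373% of all genes called, Tcf21 at -1.53 (SE 0.13, adjusted p = 0.0185 in limma) and Myf5 at -2.33 (SE 0.27, adjusted p = 0.0492), and 0 rose. With no adjustment 5 of the 7 were lower and 0 higher by limma p, while Isl1 differed by 0.12 (SE 0.13) and Tlx1 by 0.05 (SE 0.14). Of all genes tested, 1.2% were lower and 1.47% higher at an unadjusted limma p under 0.05. The same shares stand beside the unadjusted counts of the other marker lists below. Neither Tcf21 nor Myf5 passed with a gene's probe sets averaged or without any 1 of the wild-type arrays, and Myf5 did not pass with no filter, with a floor of 4, without the intensity trend or with array weights. The mean of the list was 6.24, 6.35 and 6.47 on the labelled-null arrays, against 7.27, 7.42 and 7.40 on the wild-type arrays. The list median was -0.84, and -0.97 without labelled-null replicate 3, where 3 fell, against 0.137% of all genes called. The surface and oral ectoderm markers averaged 9.94 to 10.14 on the labelled-null arrays and 9.78 to 10.07 on the wild-type arrays, and 0 of 16 passed in either direction (2 higher and 0 lower by unadjusted limma p). Those 2, Krt18 (0.80) and Tfap2c (0.25), read highest on labelled-null replicate 3, the array with placental transcripts. Without that array their differences were 0.31 and 0.135. The pharyngeal endoderm markers averaged 6.64 to 6.91 on the labelled-null arrays and 6.67 to 6.73 on the wild-type arrays, with 0 of 11 past the threshold (1 higher and 1 lower unadjusted in limma). Neural tube and brain markers averaged 5.55 to 5.65 on the labelled-null arrays and 5.48 to 5.53 on the wild-type arrays, with 0 of 18 past the threshold (3 higher and 2 lower unadjusted in limma). The higher ones were Stmn2 (0.90), Otx2 (0.61) and Neurod4 (0.44), and the lower ones Fabp7 (-0.52) and Nes (-0.35). Levels within the neural list differed widely. Neurog2 and Olig2 stayed under 4 on every array and Sox1 lay between 3.88 and 4.21, while Sox2 lay between 8.44 and 9.07 and Nes between 7.59 and 8.03. The blood markers averaged 9.50 to 9.61 on the labelled-null arrays and 9.52 to 9.68 on the wild-type arrays. The part of the core mesoderm genes in the differences of Emx2 and Gbx2 was not tested.

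**Figure D5:**
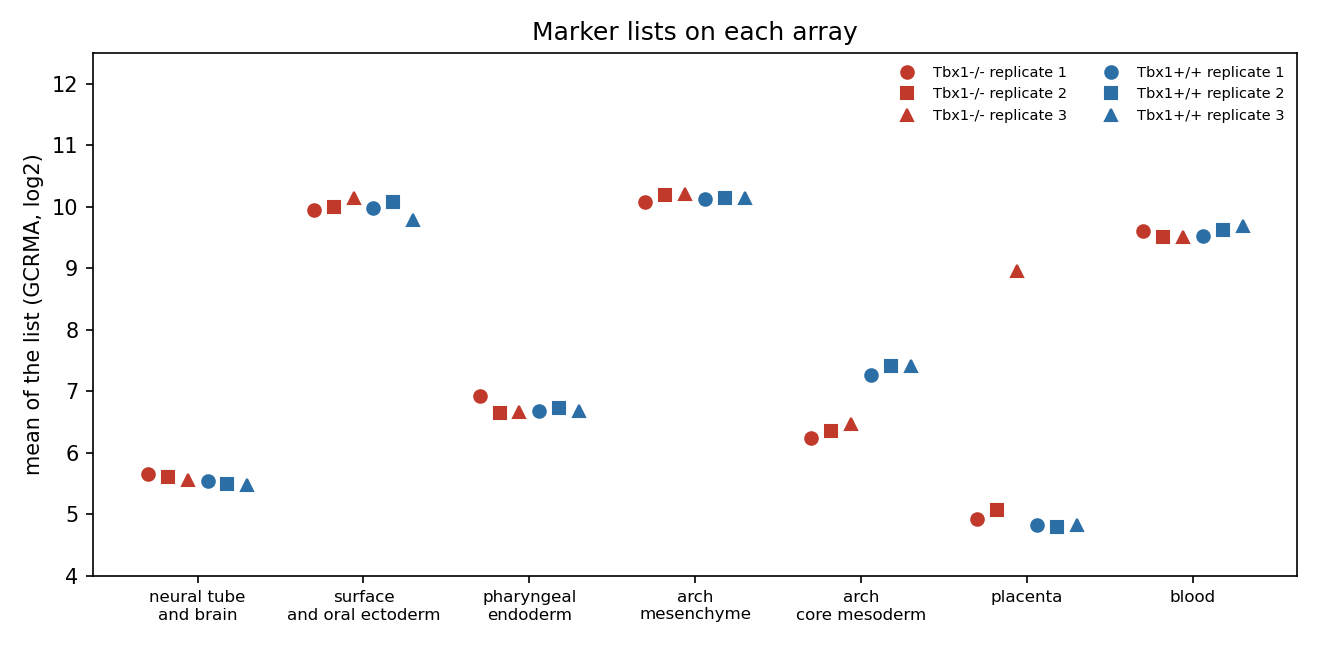
Mean of each marker list (GCRMA, log2) on the 6 arrays, labelled-null (Tbx1-/-) arrays in red at the left of each group and wild-type (Tbx1+/+) arrays in blue. The core mesoderm list is lower on all labelled-null arrays, at 6.24 to 6.47 against 7.27 to 7.42, and the placental list is high on labelled-null replicate 3 alone, at 8.95.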

How the data were processed

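Per the labels' protocols, labelled cDNA was made from 100 ng of column-purified total RNA. The deposited values were made with GCRMA (version not stated), per the submitters' processing notes, and are on a log2 scale, as read from their range of 1.95 to 15.1. GCRMA models probe background and equalizes the arrays, which removes a shift common to most genes. No scanner files were used here.

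Of the probe sets, 34945 carried 1 gene symbol, 932 several and 9160 none, and 64 were controls. Gene IDs matched the RefSeq table for 34741 and changed 0 symbols. The probe set with the highest mean stood for a gene, and genes above 4 on at least 3 arrays were tested. Genotype was fitted in limma 3.58.1 (R 4.3.3) with an intensity trend, and p-values were adjusted by Benjamini-Hochberg with a threshold of 0.05. SEs of the members come from the same model over all probe sets except controls. The fit was tested on simulated data with independent noise for each value. That setting held no array like labelled-null replicate 3 and no deviation shared by replicate number, so it shows nothing about these. The members, the lists and the tests were chosen with earlier results of these data known. Named genes were the members, Tbx1, 6 genes fixed by name, in each list the genes past the threshold or otherwise up to 4 with the smallest p, and the 5 genes most like each member; the text prints part of them.

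Arrays with the same replicate number deviated together from their genotype means (r of 0.26, 0.13 and 0.14, against -0.20 to 0.06 for other pairs), so on the data alone the numbers may be a pairing. The main fit did not use it, so the SEs and p-values given are unpaired, and the replicate block was run as an alternative. No arrays held identical values (SD of the difference 0.23 to 0.41). Alternatives were averaging a gene's probe sets, no filter, a floor of 4, further normalization, median centring, no trend, array weights, the replicate block and leaving out each array. The number of arrays limits the precision.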

Additional observations from a re-analysis of the deposited data

How the results depend on the processing

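The differences of the 5 Emx and Gbx probe sets moved by less than 1 SD between replicates under each of the alternatives run on them. For most alternatives that outcome was fixed beforehand and shows nothing about stability. Leaving out 1 of 3 arrays cannot move a difference by 1 such SD. The replicate block cannot move it at all, and no member value lay under the floor of 4. Under further normalization Emx2 was -1.43 and Gbx2 -0.87, and under median centring -1.43 and -0.86. Leaving out labelled-null replicate 3 gave the lowest value of Emx2 (-1.81) and of Gbx2 (-0.98), and leaving out labelled-null replicate 1 the highest (-1.14 and -0.67). With the replicate block they were -1.43 and -0.86 again, since the pairs are balanced. The sets of Emx1 ranged from -0.09 to 0.02 and from -0.04 to 0.16, and Gbx1 from 0.00 to 0.19, with 1 array left out. The number of genes past the threshold in limma, 6 with all arrays (2 higher and 4 lower), was 0 when a gene's probe sets were averaged (477 at an unadjusted p under 0.05). It was 2 with no filter, 2 with a floor of 4, 2 without the trend and 10 with the replicate block. With 1 array left out it ranged from 0 without wild-type replicate 3 (504 unadjusted) to 22 without labelled-null replicate 3, and it was 1 without wild-type replicate 1 or 2. Of the 4 lists of relatives and partners, all with 0 calls, the Emx partners had 1 lower gene with array weights and without labelled-null replicate 3, and 0 to 1 with 1 array left out; the block changed no list's count. The cause of these changes was not tested. Values close to 4, as in Gbx1, En2 and Emx2os, have little signal over background.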
